A study of Mus musculus with 6 samples.

Results

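The SoxF transcription factors and the genes of arterial identity were followed in emerging hematopoietic cells of the mouse aorta. The 10 genes were chosen by name from the 24062 genes listed: the SoxF factors Sox7, Sox17 and Sox18, the Notch effectors Hey1 and Hey2, the ephrin ligand Efnb2, the connexins Gja4 and Gja5, the kinase Bmx, and the venous factor Nr2f2 as a contrast. All 10 were counted and all 10 passed the filter on low counts, which kept 12688 genes. The cells came from the AGM (aorta-gonad-mesonephros) of C57BL/6JOlaHsd embryos at embryonic day 10.5 that carried 1 Gata2Venus allele, in which an IRES-Venus cassette at the end of Gata2 makes the fluorescent protein Venus from the Gata2 transcript. CD31+ckit+ cells were sorted into a fraction with intermediate Venus (Vmed) and a fraction with high Venus (Vhigh), and 3 libraries of each were sequenced. These were made in independent experiments according to the study, the number of embryos pooled per library is not given in the sources used here, and no untreated or Venus-negative group was analysed here.

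In the embryo, arteries and veins acquire their identity before and during the onset of blood flow. VEGF and Notch signals, together with SoxF factors, promote the arterial program (Hey1, Hey2, Efnb2, the connexins), whereas Nr2f2 (COUP-TFII) keeps venous endothelium from adopting it. Blood stem and progenitor cells bud from arterial endothelium of the aorta, and the SoxF factors are known for their activity in this hemogenic endothelium and for being downregulated as blood cells form. The comparison of Vmed with Vhigh thus asks how much of the endothelial program the cells of each fraction still held.

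The libraries held between 8296831 and 12035206 counts on genes. Between 10427 and 18460 genes had at least 1 count, with the lowest number in Vhigh library 1. A count of 3, the smallest taken as shown, was worth 0.249 to 0.362 CPM (counts of a gene scaled to a common gene total per library). The libraries numbered 3 in both fractions stood apart from the other 4. Rn45s, the ribosomal RNA precursor, took 10.5% of the counts in Vmed library 3 and 7.47% in Vhigh library 3, against 0.887% to 1.53% in the others. Alignments outside annotated genes made up 56.6% and 55.0% in these libraries, against 71.3% to 77.2% in the others. Vhigh library 1 went against its label in Gata2, the gene that drives Venus. Its level was 39.2, 82.5 and 142 CPM in Vhigh libraries 1, 2 and 3 and 50.3, 29.4 and 68.3 CPM in Vmed, so the library labelled Vhigh 1 was below Vmed libraries 1 and 3. The log2 fold changes were therefore also fitted without it, whereas levels, pairs and marker lists are given with it. The sorted type was checked against its markers. All 14 pan-endothelial markers had counts in every library, but Cldn5 had only 2 in Vhigh library 1, below the limit of 3. Pecam1, which encodes CD31, had between 118.0 and 569 CPM in Vmed and between 160.1 and 436 CPM in Vhigh. Kit had 59.1 to 208 CPM in Vmed and 254.5 to 521 CPM in Vhigh. In sorted populations such as these, fewer cells of a type and less of an RNA per cell cannot be told apart.

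The SoxF factors share a DNA-binding HMG box, so a stretch of 60 coding bases from this box is shown for each, to let the sequences that the short reads had to separate be compared. Capitals mark the 12 positions at which the 3 mouse genes (GRCm38) are not all alike.
Sox7, chr14:63947799-63947858, plus strand, last exon: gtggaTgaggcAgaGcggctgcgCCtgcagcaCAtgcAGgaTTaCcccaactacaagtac
Sox17, chr1:4492565-4492624, minus strand, last exon: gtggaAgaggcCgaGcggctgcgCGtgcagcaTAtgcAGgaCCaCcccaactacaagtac
Sox18, chr2:181670893-181670952, minus strand, last exon: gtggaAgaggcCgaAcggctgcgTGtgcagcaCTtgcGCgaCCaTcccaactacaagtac
Sox7 and Sox17 had 54 of these 60 bases in common, Sox17 and Sox18 had 53, and Sox7 and Sox18 had 49. The longest run shared by all 3 was 15 bases, and no exonic window of 50 bases, the length of the reads, occurred in more than 1 of the 10 genes. A read without errors from an annotated exon thus fits 1 family member only. Windows were shared with genes outside the list mainly for Sox17, for which 85.0% of the windows occurred in no other annotated gene, for Gja5 (84.7%) and for Nr2f2 (92.6%). The shared windows of Sox17 lie in the antisense transcript Gm37587, and Nr2f2 also overlaps the antisense gene B130024G19Rik, and Gja5 the gene Gpr89. The strand setting of the counting is not given in the sources used here, so the levels of these 3 genes are less certain than those of the others.

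Sox7, a SoxF gene of early hemogenic endothelium, lies on chromosome 14 (63943673-63950732). In the Vmed libraries 1, 2 and 3 it had 20.1, 32.1 and 98.8 CPM, and in the Vhigh libraries it had 4.22, 5.25 and 46.0 CPM. It was lower in Vhigh in each of the 3 same-numbered pairs, by 4.77-, 6.11- and 2.15-fold, but the fractions overlapped because Vhigh library 3 was above Vmed libraries 1 and 2. The mean was 50.3 ± 42.4 CPM (SD, n = 3) in Vmed and 18.5 ± 23.8 CPM (SD, n = 3) in Vhigh. In edgeR's quasi-likelihood test, Vhigh over Vmed gave a log2 fold change of −1.45 ± 1.22 (standard error, as for all log2 fold changes that follow), with an adjusted p of 0.9998. With the replicate number as a block, which compares same-numbered libraries, it was −2.02 ± 0.84 (adjusted p = 0.987), so Sox7 passed the threshold in neither fit.

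Sox17, which maintains arterial endothelium and is required for fetal blood stem cells, lies on chromosome 1 (4490931-4497354). It had 6.18, 10.1 and 101.3 CPM in Vmed libraries 1, 2 and 3 and 20.1, 1.84 and 56.1 CPM in the Vhigh libraries. Here the pairs did not share a direction: Sox17 was 3.25-fold higher in Vhigh in pair 1 and 5.498- and 1.81-fold lower in pairs 2 and 3. The same edgeR test put Sox17 at a log2 fold change of −0.58 ± 1.43 (adjusted p = 0.9998), which was 1.72 when Vmed library 3 was left out.

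Sox18, a regulator of early vascular and lymphatic endothelium, lies on chromosome 2 (181669836-181671640). It spanned the widest range of the family, with 1.94, 18.2 and 126.4 CPM in Vmed. In Vhigh it had no count in library 1, where the limit of 3 counts used here corresponds to 0.281 CPM, and 12.5 and 92.2 CPM in libraries 2 and 3. Each Vhigh library was below the Vmed library of the same number, by 1.45-fold in pair 2 and 1.37-fold in pair 3. For Sox18 edgeR gave a log2 fold change of −0.51 ± 1.85 (adjusted p = 0.9998). Leaving out Vmed library 3 turned it to 1.83 and leaving out Vhigh library 1 to 0.08, so its direction rested on single libraries.

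Within each fraction, the 3 SoxF genes differed widely between libraries. The highest library exceeded the lowest by 4.91-fold for Sox7, 16.4-fold for Sox17 and 65.0-fold for Sox18 in Vmed. In Vhigh the ratios were 10.9 for Sox7, 30.5 for Sox17 and, against the limit of 3 counts in the lowest library, at least 328-fold for Sox18. The highest library was number 3 for all 3 genes in both fractions. Of all genes tested, 20.9% had this pattern.

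**Figure D1:**
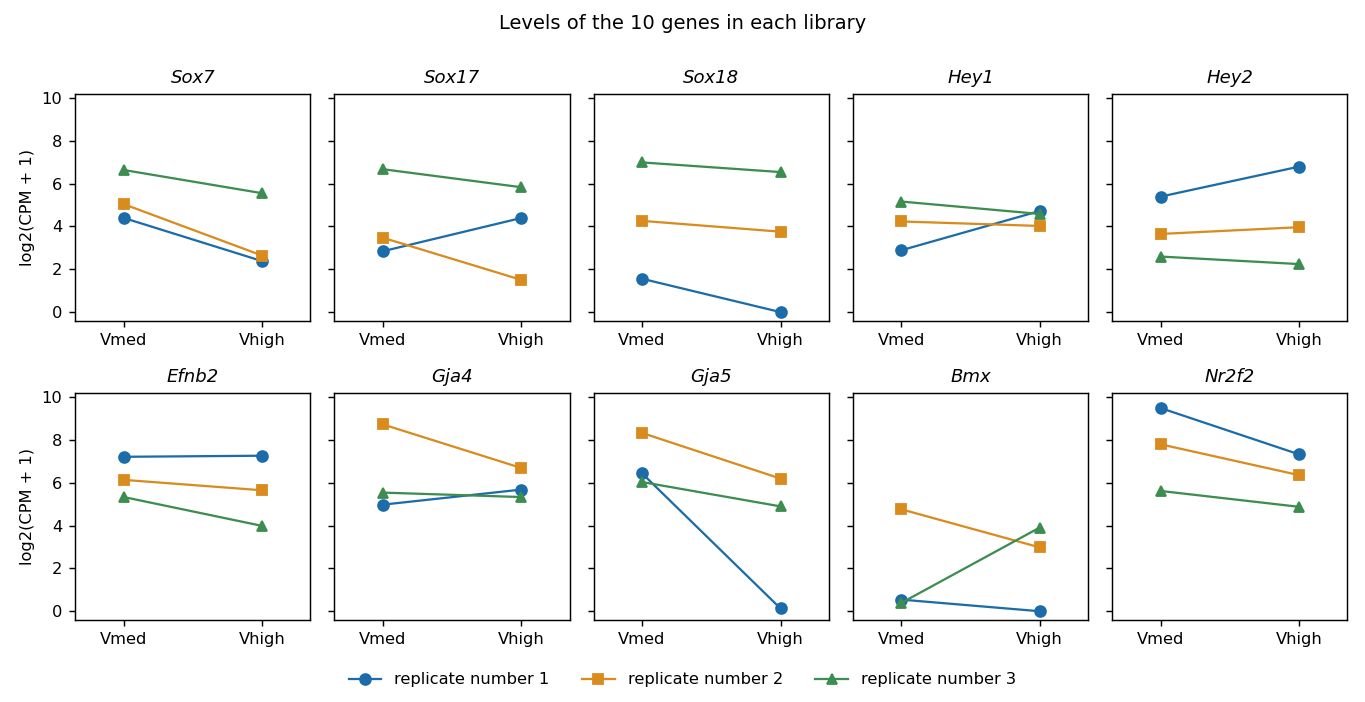
The level of each of the 10 genes is plotted as log2(CPM + 1) for Vmed and Vhigh, with 1 point per library and lines that join libraries of the same replicate number. The same replicate number is on top in both fractions for 8 of the 10 genes: number 3 for Sox7, Sox17 and Sox18, number 1 for Hey2, Efnb2 and Nr2f2, and number 2 for Gja4 and Gja5.

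The makeup of the family also differed between libraries. On a scale corrected for gene length (RPKM, which is CPM per kilobase of exon), Sox7 made up 71.0% of the SoxF level in Vmed library 1, and Sox18 made up 48.7% and 60.4% in Vmed libraries 2 and 3. In Vhigh library 1 the leading member was Sox17, with 76.7% of the SoxF level. Sox18 led in Vhigh libraries 2 and 3, with 79.6% and 68.9%. The same member led in every library when the longest transcript was used as the gene length.

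The summed SoxF level was 28.3, 60.4 and 327 CPM in Vmed libraries 1, 2 and 3 and 24.3, 19.6 and 194 CPM in the Vhigh libraries. The sum of the endothelial markers was likewise highest in number 3, but only 8 of the 14 were highest there in both fractions. The 14 pan-endothelial markers summed to 1475, 4319 and 5578 CPM in Vmed and to 1110, 1736 and 4109.9 CPM in Vhigh. Set against this sum, the SoxF genes had 19.2, 14.0 and 58.5 CPM per 1000 pan-endothelial CPM in Vmed. In Vhigh they had 21.9, 11.3 and 47.3. On this relative scale number 3 was still the highest in both fractions, by less than in CPM. Vhigh was above Vmed in pair 1 and below it in pairs 2 and 3. Sox7 alone of the family was lower in Vhigh in all 3 pairs on the relative scale (13.7, 7.42 and 17.7 against 3.80, 3.02 and 11.2). An exact two-sided permutation test of its mean log2 relative level, which did not use the pairs, gave p = 0.2. With 20 arrangements of 3 libraries against 3, this test cannot go below 0.1. The part of the endothelial content, of Rn45s and of the share of alignments outside genes in the SoxF levels was not tested.

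**Figure D2:**
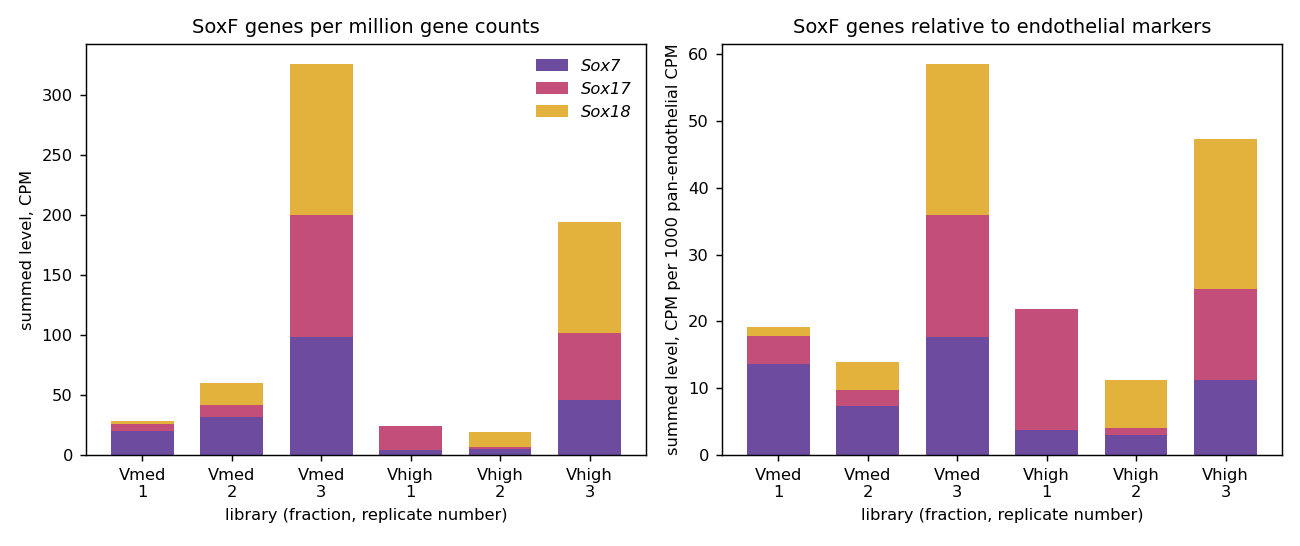
Bars show the summed level of Sox7, Sox17 and Sox18 in each of the 6 libraries, in CPM (left) and in CPM per 1000 CPM of the 14 pan-endothelial markers (right), and colors show the 3 genes. The bars of the libraries numbered 3 are the tallest of their fraction in both panels, and Sox18 is missing from Vhigh library 1.

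Hey1 and Hey2 encode transcriptional repressors that Notch switches on and that hold arterial fate. Hey1 (chromosome 3, 8663359-8667256) had the narrowest range of the members in Vhigh, 1.66-fold, but not in Vmed, where it was 5.45-fold. It had 6.41, 17.8 and 34.9 CPM in Vmed and 25.4, 15.3 and 23.02 CPM in Vhigh. All Vhigh values lay inside the Vmed range. With edgeR its log2 fold change was 0.11 ± 1.20 (adjusted p = 0.9998), and it was below 0 without Vmed library 1 (−0.30) or Vhigh library 1 (−0.11). Hey2 (chromosome 10, 30832359-30842801) was lowest in the libraries numbered 3, where the SoxF genes were highest. It had 41.1, 11.6 and 5.04 CPM in Vmed and 110.1, 14.6 and 3.74 CPM in Vhigh. The highest value in each fraction was thus in library 1, which exceeded the lowest by 8.14-fold in Vmed and 29.5-fold in Vhigh. Its log2 fold change of 1.20 ± 1.38 (adjusted p = 0.9998, edgeR) was the highest among the members, and it was −1.25 without Vhigh library 1.

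Efnb2, the arterial ligand of the venous receptor EphB4, lies on chromosome 8 (8617434-8661242). It followed the order of Hey2 with 147.6, 69.4 and 39.4 CPM in Vmed and 152.9, 49.3 and 14.9 CPM in Vhigh. The fractions were almost the same in pair 1, where Vhigh was 1.04-fold higher, and Vhigh was 1.41- and 2.65-fold lower in pairs 2 and 3. The edgeR log2 fold change was −0.22 ± 0.91 (adjusted p = 0.9998). It was above 0 without Vmed library 1 (0.48), Vhigh library 2 (0.07) or Vhigh library 3 (0.29), but −1.59 ± 0.79 without Vhigh library 1.

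Gja4 and Gja5 encode connexin 37 and connexin 40, which form gap junctions between arterial endothelial cells. Both were highest in the libraries numbered 2. Gja4 (chromosome 4, 127311421-127314039) had 30.5, 423 and 45.6 CPM in Vmed and 50.4, 102.5 and 39.4 CPM in Vhigh. Vmed library 2 stood 13.9-fold above Vmed library 1, and without it the log2 fold change moved from −1.40 ± 0.91 (adjusted p = 0.9998, edgeR) to 0.66. Gja5 (chromosome 3, 96904693-97077416) had 85.9, 321 and 64.6 CPM in Vmed and 0.0938, 72.4 and 28.8 CPM in Vhigh. The first Vhigh value is a single count, for which the 95% Poisson interval reaches from 0.0253 to 5.57 counts. In pairs 2 and 3, Gja5 was 4.43- and 2.24-fold lower in Vhigh. The edgeR fit gave it a log2 fold change of −2.33 ± 1.30 (adjusted p = 0.9998) with all libraries and of −1.75 ± 0.76 without Vhigh library 1. Vhigh library 2 was above Vmed library 3, so the fractions overlapped.

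Bmx, a Tec-family kinase of arterial and endocardial endothelium, lies on chromosome X (164192842-164258193) and had the lowest mean level per length of the members in both fractions. It had 0.458, 26.2 and 0.309 CPM in Vmed, the outer 2 values being 4 and 3 counts, and 0, 6.91 and 14.0 CPM in Vhigh. Its sign rested on single libraries: the log2 fold change was −0.36 ± 2.33 (adjusted p = 0.9998, edgeR), but 3.98 without Vmed library 2 and 0.22 without Vhigh library 1.

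Nr2f2 encodes the nuclear receptor of venous identity, which is also made in mesenchyme, and lies on chromosome 7 (70351944-70366735). It had 720.1, 222 and 48.2 CPM in Vmed libraries 1, 2 and 3 and 159.8, 81.1 and 28.4 CPM in the Vhigh libraries. It was lower in Vhigh in all 3 pairs, by 4.50-, 2.73- and 1.70-fold. The ranges still overlapped, because Vmed library 3 was below Vhigh libraries 1 and 2. By edgeR the log2 fold change was −1.89 ± 0.90 (adjusted p = 0.9998), and it lay between −2.77 (without Vhigh library 1) and −0.53 (without Vmed library 1) when each library was left out in turn. With the replicate number as a block, it was −1.50 ± 0.34 (adjusted p = 0.82). Relative to the pan-endothelial sum, Nr2f2 had 488, 51.3 and 8.64 in Vmed and 144, 46.7 and 6.91 in Vhigh per 1000 CPM, so that all 3 pairs differed by less than in CPM.

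Across the replicate numbers Nr2f2 had the same order as the arterial genes Efnb2 and Hey2, and all 3 were highest in number 1 and lowest in number 3 of both fractions. This order was not particular to vascular genes, as the megakaryocyte marker Pf4 and the neural marker Stmn2 had it too. Its share over all genes tested was not determined. Per length, Nr2f2 was 3.88, 2.54 and 0.971 times Efnb2 in Vmed and 0.831, 1.31 and 1.52 times Efnb2 in Vhigh. With the longest transcript as gene length, the ratios were 5.54, 3.63 and 1.39 in Vmed and 1.19, 1.87 and 2.17 in Vhigh, so the ratio itself depended on the gene model. Markers of other cell types moved with the fraction beside Nr2f2. The 13 mesenchyme and mural markers summed to 2415, 3926 and 4678 CPM in Vmed and to 723, 605 and 281 CPM in Vhigh. Of these 13, 11 were lower in Vhigh in all 3 pairs. Some genes of this list, such as Col1a1 and Pdgfra, were present in every library, while Twist1 had no count in the libraries numbered 3. In Vhigh library 1, Prrx1 and Osr1 had no count, and Pdgfrb and Tcf21 had 2 counts each, below the limit of 3. Within Vhigh the mesenchyme sum was highest in library 1, as was Nr2f2, whereas within Vmed it was lowest there. Single genes of the list differed in this. In Vmed, Prrx1 had 152, 22.3 and 7.10 CPM and Tcf21 145, 19.2 and 9.16 CPM, highest in library 1 as Nr2f2 was. In Vhigh, both were instead lowest in library 1, where Nr2f2 was highest. Prrx1 had 0, 17.95 and 2.99 CPM and Tcf21 0.188, 3.68 and 0.415 CPM in Vhigh libraries 1, 2 and 3. Of the 13 mesenchyme and mural markers, 2 were highest in number 1 of both fractions, as Nr2f2 was. The part of these cells in the Nr2f2 levels was not tested.

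**Figure D3:**
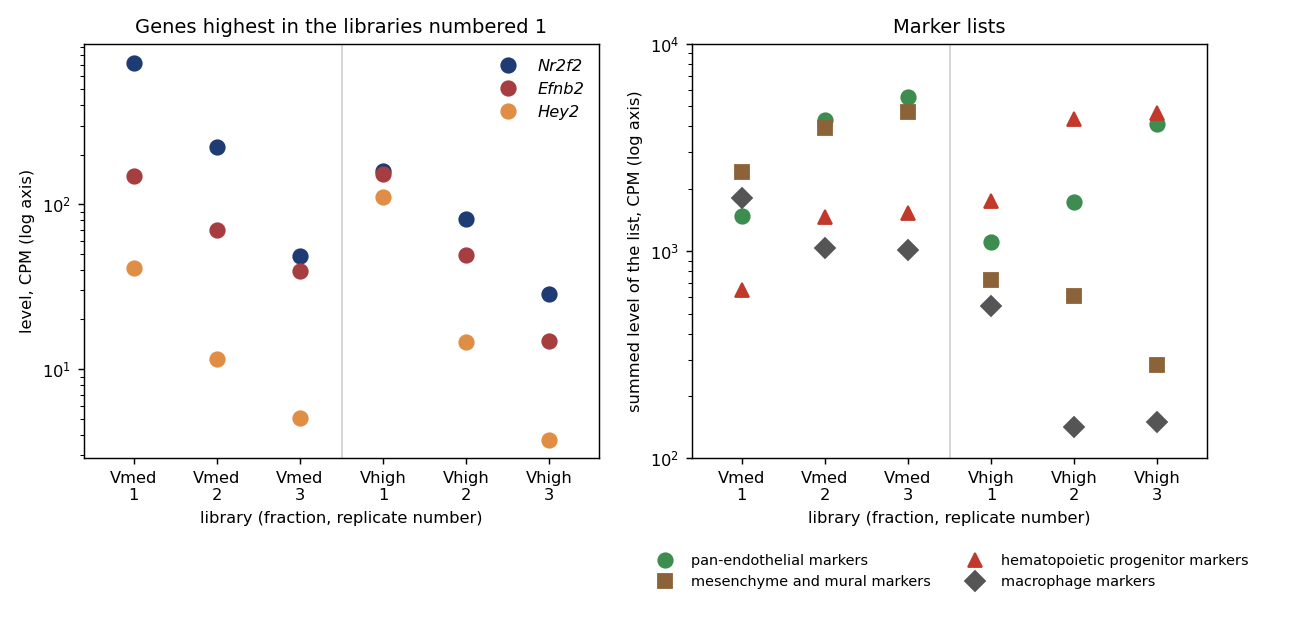
Points show, for each of the 6 libraries, the CPM of Nr2f2, Efnb2 and Hey2 (left) and the summed CPM of 4 marker lists (right), both on log axes. Nr2f2, Efnb2 and Hey2 are highest in number 1 and lowest in number 3 of both fractions, whereas the mesenchyme and macrophage sums are lower and the hematopoietic progenitor sum higher in each Vhigh library than in every Vmed library.

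For the members as a set, none of the 10 passed the threshold in edgeR's quasi-likelihood test of the fractions, nor did any other gene. In edgeR's quasi-likelihood test 0 of 12688 genes (0%) had an adjusted p below 0.05, with 0.66 as the lowest. Before adjustment, 259 genes (2.04%) and 0 members had a p below 0.05. By other tools, 21 genes were called by edgeR's likelihood ratio test, 51 by DESeq2 and 0 by limma-voom, and 0 members were among them. With the replicate number as a block, 528 genes (4.16%) had an unadjusted p below 0.05, among them 1 member, Nr2f2. Blocking with the likelihood ratio test called 74 genes (0.583%) and 0 members, the nearest being Nr2f2 (adjusted p = 0.21). The study also used edgeR with the same adjustment and threshold, but reported genes that differed between the fractions, most of them lower in Vhigh. The reason for this difference was not tested.

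In the edgeR fit, 8 of the 10 members had a log2 fold change below 0, against 51.1% of all genes tested, and the median was −0.54 against −0.02 over all genes tested. Without Vhigh library 1 the count was also 8 and the median −1.12, with Hey1 and Hey2 below 0 and Sox18 and Bmx above it. The count depended on the measure and on the scale. By the mean difference of log2(CPM + 1), Bmx was above 0 (0.40), against −0.36 in edgeR. The pan-endothelial markers were themselves lower in Vhigh for 13 of 14 genes. Relative to their sum, 4 members were lower in Vhigh by the mean log2 difference (Sox7 −1.25, Sox18 −1.03, Gja5 −3.28 and Nr2f2 −0.74). The other 6 were higher, between 0.11 (Efnb2) and 1.15 (Hey2). For Sox18 this sign rested on Vhigh library 1, which had no count. Per 1000 pan-endothelial CPM, Sox18 had 1.32, 4.21 and 22.7 in Vmed and 0, 7.21 and 22.4 in Vhigh. In CPM, Sox7, Sox18, Gja5 and Nr2f2 were lower in Vhigh in all 3 same-numbered pairs, which held for 15.4% of all genes tested. None was higher in all 3 pairs, against 15.2% of all genes. No member had all Vhigh libraries below all Vmed libraries (4.71% of all genes) or above them (4.15%). The exact permutation test of log2(CPM + 1) gave p between 0.2 (Gja5) and 1 (Bmx) for the members.

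**Figure D4:**
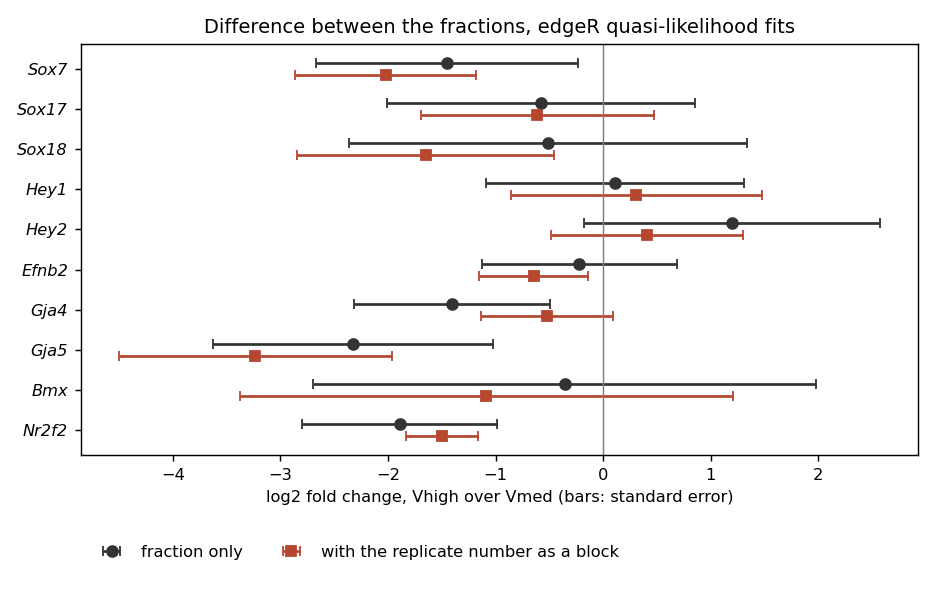
Points show the log2 fold change of Vhigh over Vmed for each member, fitted with the fraction only (circles) or with the replicate number as a block (squares), and bars show the standard error. Hey1 and Hey2 lie above 0 in both fits and the other 8 genes below, with Gja5 farthest from 0 in both.

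The members were also compared by replicate number. The same number gave the highest level in both fractions for 8 of the 10 genes, all except Hey1 and Bmx. This pattern was common, as it held for 51.7% of all genes tested. When the replicate number was the tested term and the fraction was kept in the fit, a test chosen after the data were seen, 1575 genes (12.4%) had an unadjusted p below 0.05 in edgeR's quasi-likelihood test. These included 5 members, Nr2f2, Efnb2, Sox18, Hey2 and Gja4. After adjustment 0 genes (0%) passed in this edgeR test, and the adjusted p was 0.16 for Nr2f2, 0.27 for Efnb2, 0.28 for Sox18, 0.34 for Hey2 and 0.37 for Gja4. The labels do not say what a replicate number shares, so embryo stage, sort and library preparation cannot be told apart.

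Per length, Gja4 had the highest mean level of the members in Vmed, 98.8 ± 132 RPKM (SD, n = 3), followed by Nr2f2 with 38.3 ± 40.4 and Sox18 with 30.2 ± 41.8 RPKM. This first place came from Vmed library 2 with 251 RPKM, as Gja4 was at rank 3 in Vmed libraries 1 and 3. In Vhigh the order began with Gja4, at 29.9, 60.8 and 23.4 RPKM in libraries 1, 2 and 3 (mean 38.0), and Sox18 at 21.6 ± 30.9 RPKM. Efnb2 and Nr2f2 then followed at 10.6 ± 10.5 and 10.4 ± 7.67 RPKM. Neighbours in either order differed by less than the larger of their SDs. The order depended on the gene length. With the longest transcript, Nr2f2 had means of 78.2 RPKM in Vmed and 21.3 RPKM in Vhigh, where it came before Hey2 (16.8) and Efnb2 (15.1), and Gja5 (42.8) came before Sox18 in Vmed. Bmx came last in both, with 2.90 ± 4.81 RPKM in Vmed and 2.26 ± 2.27 RPKM in Vhigh.

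The other genes of the arterial program were described by the same counts. Of the 16 other arterial genes, 12 were lower and 4 higher in Vhigh, with a median log2 fold change of −0.65, and 0 passed the threshold. Among these 16, the semaphorin and VEGF receptor Nrp1 stood out, with 578, 785 and 653 CPM in Vmed and 44.6, 221 and 232 CPM in Vhigh. Each Vhigh library was below every Vmed library for this gene, and edgeR gave −2.09 ± 0.57 on the log2 scale (adjusted p = 0.9998). Such separation held for 4.71% of all genes tested. It was not particular to arterial genes, as Emcn of the venous and lymphatic list and the pan-endothelial Ecscr had it too. Dll4, the arterial Notch ligand, had 9.50, 14.1 and 16.3 CPM in Vmed and 0, 7.18 and 38.9 CPM in Vhigh. Its pattern was like that of the SoxF genes in that number 3 was the highest in both fractions. The receptor Notch1 had 37.1, 174 and 178 CPM in Vmed and 64.0, 67.8 and 75.7 CPM in Vhigh, and the Notch target Hes1 had 65.6, 17.5 and 36.2 CPM against 63.4, 14.2 and 39.1 CPM. Hes1 levels were thus nearly equal between same-numbered libraries. Its log2 fold change was −0.02 ± 0.98 in the edgeR fit by fraction alone and −0.11 with the replicate number as a block. The study instead reported significantly higher Notch1 and Hes1 in Vmed, by a t test of Cufflinks values, which were not used here. The reason for the difference was not tested.

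Of the 9 other venous and lymphatic genes, 8 were lower in Vhigh, with a median log2 fold change of −1.34, and 0 passed. Nr2f1, the closest relative of Nr2f2, had 93.6, 27.6 and 9.16 CPM in Vmed and 10.1, 6.26 and 0.914 CPM in Vhigh. It shared the order of Nr2f2 across the replicate numbers. Ephb4, the venous receptor of Efnb2, had the opposite order, with 30.7, 78.3 and 339 CPM in Vmed and 38.1, 48.4 and 91.9 CPM in Vhigh. In each fraction, Ephb4 was therefore highest where Efnb2 was lowest. The lymphatic factor Prox1 had 0, 71.0 and 58.3 CPM in Vmed and 0, 0.552 and 10.8 CPM in Vhigh.

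Of the 14 pan-endothelial markers 13 were lower in Vhigh (median log2 fold change −0.76), and of the 16 hematopoietic progenitor markers all 16 were higher (median 1.41), 13 of them in all 3 pairs. None of either list passed the threshold. The progenitor markers summed to 648, 1470.0 and 1525 CPM in Vmed and to 1740, 4326 and 4655 CPM in Vhigh. This list includes Gata2, which drives the Venus used to separate the fractions, and Kit, used to gate both. These RNA levels do not count progenitors. In the study's colony and transplantation assays, most progenitors and all stem cells detected were in Vmed.

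Genes with the pattern most like 4 of the members were found by the mean absolute difference of centered log2(CPM + 1) over the 6 libraries, among 10928 genes. For Sox7 these were Ror2 (0.21), Mest (0.28) and Nefm (0.37). For Sox17 they were Junb (0.43), Xbp1 (0.44) and Chst14 (0.53), and for Sox18 Adam15 (0.27), Wbscr16 (0.32) and Unk (0.33). The nearest genes of Nr2f2 were Skil (0.24), Vcan (0.32) and Epha7 (0.32), and Efnb2 came at rank 92 with 0.66. No SoxF gene was among the 3 nearest of another.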

How the data were processed

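The authors sequenced SMARTer-amplified RNA as single reads of 50 bases and aligned them to GRCm38/mm10 with TopHat and Bowtie 1.1.2, and the submitters' processing notes list HTSeq. They deposited raw counts per gene for each library, without normalization. Lines for alignments outside genes (55.0% to 77.2% of all alignments) were left out of totals and tests. Here, CPM used each library's gene total. The fractions were compared in edgeR 4.0.16 (R 4.3.3) as Vhigh over Vmed: filterByExpr kept 12688 of the 24062 genes, TMM factors scaled the libraries, and p-values of the quasi-likelihood test were adjusted after Benjamini-Hochberg at 0.05. The fitted procedure was tested on simulated data. RPKM used exon-union lengths of GENCODE annotation (GRCm38), matched by symbol (22750 directly, 935 by older symbols, 377 unmatched). Windows of 50 exonic bases of each member were looked for in other GENCODE transcripts by exact match.

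All 10 members were named, and other genes only from fixed marker lists (arterial, venous and lymphatic, endothelial, progenitor, mesenchyme, macrophage, erythroid, megakaryocyte, germ cell, epithelial, neural) or as the 3 genes most like Sox7, Sox17, Sox18 and Nr2f2 with a mean of at least 5 CPM. The members and lists were chosen with earlier results of these data known. Libraries share replicate numbers in the labels. Deviations from the fraction means correlated at 0.21, 0.21 and 0.39 in same-numbered libraries and at −0.29 to −0.01 in others over 12688 genes, so the numbers were taken to pair the libraries. Alternatives were other normalizations, filters and tests (DESeq2 1.42.0, limma 3.58.1), the block, thinning and each library left out. Intervals and limits cover counting error only, as reads carry no molecular identifiers. Cufflinks values and DESeq-transformed counts of the study were not used here.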

Additional observations from a re-analysis of the deposited data

How the results depend on the processing

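No member was called in any of the 19 alternative settings. Of 190 log2 fold changes, 177 kept their sign and 13 turned it, all 13 when libraries were left out and 0 in the other 12 settings, and those of Sox7, Gja5 and Nr2f2 never turned. On another scale, the mean log2 level relative to pan-endothelial markers, 3 genes turned with all libraries kept: Sox17 from −0.42 to 0.20, Efnb2 from −0.59 to 0.11 and Gja4 from −0.51 to 0.21. Without Vmed library 1, Hey1 was at −0.30 and Efnb2 at 0.48. Without Vmed library 2, Gja4 was at 0.66 and Bmx at 3.98, and without Vmed library 3 Sox17 was at 1.72 and Sox18 at 1.83. Without Vhigh library 1, Sox18 was at 0.08, Hey1 at −0.11, Hey2 at −1.25 and Bmx at 0.22. The other members kept their sign there, with Sox7 at −0.99, Sox17 at −0.44, Efnb2 at −1.59, Gja4 at −1.33, Gja5 at −1.75 and Nr2f2 at −2.77. Without Vhigh library 2 or 3, Efnb2 was at 0.07 and 0.29. Without both libraries numbered 1, a setting chosen after seeing the data, Hey1 was at −0.52. The cause was not tested. With 1 library left out, the values ranged from −3.40 to −0.48 for Sox7, −1.68 to 1.72 for Sox17, −3.09 to 1.83 for Sox18, −0.30 to 0.84 for Hey1, −1.25 to 2.47 for Hey2, −1.59 to 0.48 for Efnb2, −1.89 to 0.66 for Gja4, −3.47 to −1.35 for Gja5, −1.43 to 3.98 for Bmx and −2.77 to −0.53 for Nr2f2. Against 0 genes called in all 12688, 37 were called with no filter (13 higher, 24 lower), 21 by the likelihood ratio test (11 higher, 10 lower), 51 by DESeq2 (20 higher, 31 lower), 74 by the likelihood ratio test with the replicate block (26 higher, 48 lower), and 0 to 1 with a library left out, the 1 without Vhigh library 1. The block changed no other call. The median log2 fold change of all genes was −0.14 with limma-voom and −0.11 with the block, against −0.02. Counting error is widest for Bmx, Sox18 and Gja5 in the libraries with 4 counts or fewer.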

Other observations

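Macrophage markers were lower in Vhigh for all 11 genes, with a median log2 fold change of −3.37, and 9 of them in all 3 pairs. The complement gene C1qb had 686, 247 and 239.9 CPM in Vmed and 92.9, 3.59 and 1.91 CPM in Vhigh. Adgre1, which encodes F4/80, had 60.1, 34.6 and 29.6 CPM in Vmed and 0, 0 and 0.249 CPM in Vhigh. By edgeR 0 of the 11 had an adjusted p below 0.05, and 6 did before adjustment.

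In the remaining lists 0 genes passed the threshold, and most genes tested were lower in Vhigh except in the germ cell list. Of 9 megakaryocyte markers 6 were lower, among them Pf4 with 477, 381 and 150 CPM in Vmed and 132, 18.2 and 13.0 CPM in Vhigh. Of 6 erythroid markers tested 5 were lower (median −0.85), of 7 epithelial and mesonephric markers 6 (median −1.91), and of 8 neural and neural crest markers all 8 (median −1.75). Of 4 primordial germ cell markers tested, 2 were higher and 2 lower.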
